A study of Mus musculus with 6 samples.

Results

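The immediate early genes are switched on within minutes of a stimulus, without any need for new protein. The 10 described here are the zinc finger factor Egr1, the Fos and Jun family factors Fos, Fosb, Jun, Junb and Jund, the related stress factor Atf3, and Ier2, Ier3 and Zfp36, which respond in the same way. Ier3 and Zfp36 do not encode DNA-binding transcription factors: Ier3 encodes a regulator of cell survival and Zfp36 a protein that binds AU-rich messenger RNAs and marks them for decay. All 10 were measured, of 22180 genes in all. Each was represented by the probe set that named that gene alone and had the highest mean over the 6 arrays. Only Jund had more than 1 such probe set.

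The arrays came from livers of male C57BL/6 mice, 1 array per mouse. In 3 of the mice (numbers 13, 21 and 6) the liver expressed green fluorescent protein (GFP, given as EGFP in the descriptions), and in the other 3 (numbers 26, 28 and 31) it expressed Sonic Hedgehog (SHH), the secreted ligand of the Hedgehog pathway. The study's design text describes hydrodynamic transfection, in which DNA in a large fluid volume is injected quickly and enters hepatocytes, and asks about fibrosis and genes related to it. No further treatment is listed. The sources used here do not give the age of the mice, the promoter and vector, or the time between transfection and the collection of the liver.

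In resting liver most immediate early genes are kept low. Growth factors acting through the MAP kinases, cytokines, wounding, partial hepatectomy and other stresses raise them briefly. Fos and Jun proteins pair through leucine zippers to form the AP-1 factor, and Fos proteins need a Jun partner to bind DNA. Serum response factor and its ternary complex partners at the CArG box, and CREB and ATF factors at the TGACGTCA element, are the classical activators of these genes.

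Part of the immediate early set separated the groups: Egr1, Fos, Junb and Ier2 each had a higher signal in every SHH liver than in any GFP liver. Their mean log2 signals were 1.88, 0.80, 0.64 and 0.64 higher, and Egr1 had the largest difference, 3.68-fold. The remaining genes, Fosb, Jun, Jund, Atf3, Ier3 and Zfp36, overlapped between the groups, with differences of -0.25 to 0.16. None of the 10 passed the test over all genes (limma, Benjamini-Hochberg threshold 0.05), and neither did any other gene: 0 of 22180 were called higher and 0 lower, 0% in each direction.

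At an unadjusted p under 0.05, limma gave 738 genes with a higher mean in SHH livers (3.33% of all genes) and 889 with a lower mean (4.01%). Of the 10 immediate early genes, 4 lay in the first group, again Egr1, Fos, Junb and Ier2, and 0 in the second. Complete separation with every SHH liver on top was found for 1166 genes, 5.26% of all, and complete separation the other way for 1607, 7.25%. Among the 10 genes the counts were 4 and 0. The median difference of the 10 was 0.12 on the log2 scale, beside -0.03 for all genes. It depended on single livers, being 0.06 without SHH 31 or GFP 21, 0.08 without SHH 28, 0.19 without GFP 6 and 0.27 without SHH 26, and it was 0.04 with array weights.

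Egr1, a zinc finger factor that binds GC-rich promoter sites, had log2 signals of 5.29, 5.18 and 5.53 in the GFP livers (mice 13, 21 and 6, the order used throughout). In the SHH livers (mice 26, 28 and 31) they were 6.75, 8.33 and 6.57. The lowest SHH liver thus lay 1.04 above the highest GFP liver on the log2 scale, and SHH 28 lay well above the other SHH livers. GFP livers averaged 5.33 ± 0.18 (SD, n = 3), and SHH livers averaged 7.22 ± 0.97 (SD, n = 3). The difference of 1.88 had a 95% interval of 0.98 to 2.78 (limma, unadjusted p = 0.00112, adjusted p = 0.409). Without SHH 28 the difference was 1.32.

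Fos, the partner that gives AP-1 much of its inducibility, had log2 signals of 4.38, 4.57 and 4.54 in the GFP livers. Those of the SHH livers were 4.67, 5.67 and 5.56. SHH 26 lay just above the GFP livers, and SHH 28 and SHH 31 lay apart from all others. The difference was 0.80 (1.75-fold; 95% interval 0.25 to 1.35; limma, adjusted p = 0.530). Without SHH 26 it was 1.12 and passed over all genes (limma, adjusted p = 0.0362; range over the 15 alternatives 0.0362 to 0.870). Fos was the only one of the 10 genes to pass under any alternative run.

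Junb, a Jun family factor, had log2 signals of 6.88, 7.16 and 7.18 in the GFP group against 7.21, 8.15 and 7.78 in the SHH group. The separation rested on a gap of 0.03 between SHH 26 and GFP 6, while SHH 28 and SHH 31 were clearly higher. The difference was 0.64 (1.56-fold; 95% interval 0.13 to 1.15; limma, adjusted p = 0.599), and 0.42 without SHH 28. Its unadjusted p of 0.0188 became 0.0650 without GFP 13, 0.0683 without SHH 28 and 0.0548 without SHH 31.

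Ier2, which encodes a small nuclear protein, had the tightest GFP values of the 10 genes. Its log2 signals were 5.90, 5.85 and 5.86 in that group. The SHH livers gave 6.28, 6.96 and 6.30. All SHH livers stood clear of the GFP livers, by at least 0.38 on the log2 scale. The difference was 0.64 (1.56-fold; 95% interval 0.22 to 1.07; limma, adjusted p = 0.521), and 0.42 without SHH 28.

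**Figure D1:**
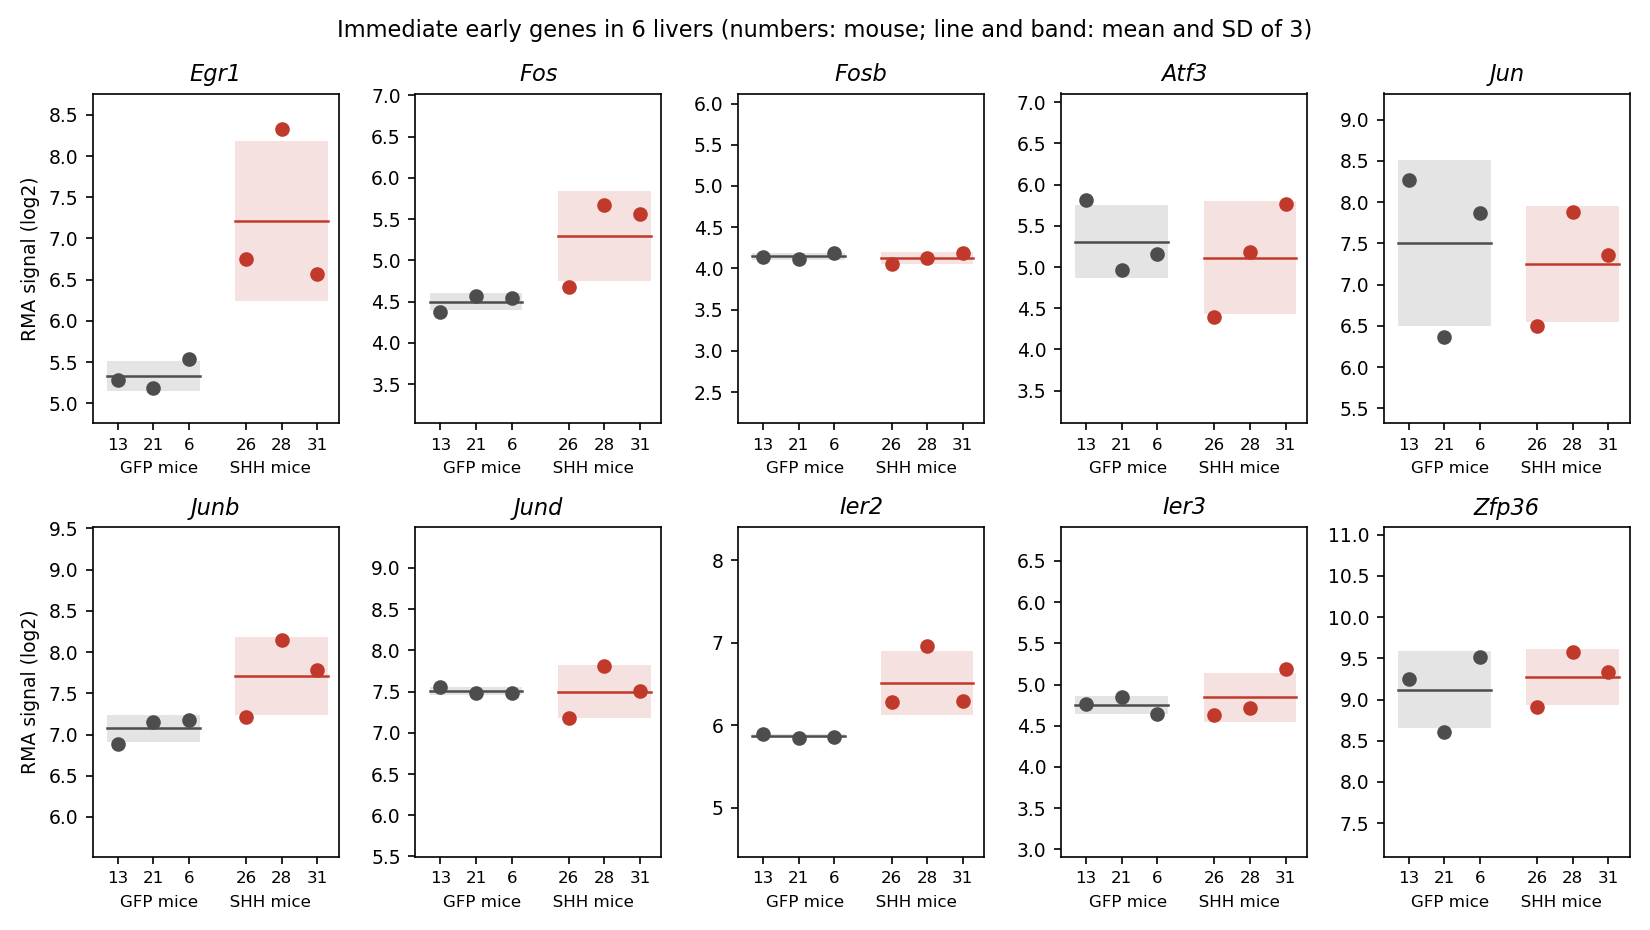
Log2 RMA signal of the 10 immediate early genes in each liver, with mouse numbers on the horizontal axis, GFP in grey and SHH in red. Lines and bands are means and SD of 3 mice, and every panel spans 4 log2 units; Egr1, Fos, Junb and Ier2 are the panels without overlap, and SHH 28 is the highest liver in each of them.

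SHH 28 was the highest of the 6 livers for 6 of the 10 genes, these 4 and also Jund and Zfp36, a position it held for 17.6% of all genes. Counted against the GFP mean, 4, 7 and 8 of the 10 genes were higher in SHH mice 26, 28 and 31. The same count was 6, 3 and 6 in GFP mice 13, 21 and 6, whose own values make up that mean. The median deviation of the 10 genes from the GFP mean was -0.11, 0.42 and 0.43 in the SHH mice. In the GFP mice it was 0.02, -0.03 and 0.04. Over all genes the median deviation was -0.03 to 0.02 across the 6 livers. SHH 26 exceeded the GFP mean only in Egr1, Fos, Junb and Ier2, and for Fos and Junb it lay close to the GFP range.

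Markers of immune cells also had higher means in SHH livers. All 8 neutrophil markers had higher means in SHH livers, beside 9723 of all 22180 genes, and 6 had an unadjusted p under 0.05, beside 3.33% of all genes. Their summed linear signal was 121, 110 and 119 in the GFP group against 139, 292 and 265 in the SHH group. The sum was highest in SHH 28, as Egr1, Fos, Junb and Ier2 were, but single markers were highest in SHH 28 or in SHH 31. The sum was lower in SHH 26 than in SHH 31, as Fos and Junb were. Egr1 was instead higher in SHH 26 (6.75 against 6.57), and Ier2 was nearly equal (6.28 against 6.30). All 8 Kupffer cell and macrophage markers had higher means, with sums of 617 to 1137 in GFP and 966 to 1890 in SHH livers, highest in SHH 31. Of 6 monocyte markers 5 had higher means (sums 424 to 697 and 647 to 1414), of 7 T and natural killer cell markers 6 (115 to 133 and 141 to 240) and of 4 B and plasma cell markers 4 (147 to 195 and 268 to 551). None of these markers was under the lower quartile on all 6 arrays. The neutrophil marker S100a8, however, was under it in every GFP liver, at 2.62 to 2.99. It escaped this rule only through the SHH livers, at 3.33 to 4.92. Of 7 endothelial markers, 6 had lower means, with sums of 842 to 1213 in GFP and 670 to 1155 in SHH livers. Higher means were not limited to immune cells. Of 7 stellate cell and myofibroblast markers 6 had higher means (sums 552 to 600 in GFP and 573 to 641 in SHH livers). Of 4 bile duct markers 1 had a higher mean (99 to 123 and 104 to 110). The part of these cells in the signals of the immediate early genes was not tested. In whole liver, more cells of a type and more RNA per cell cannot be told apart.

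The nearest relatives of these genes did not separate the groups. Fosb, the closest relative of Fos, ranged from 4.11 to 4.19 in GFP livers and from 4.05 to 4.19 in SHH livers. Array medians were 4.32 to 4.40, so Fosb lay below them and Fos in GFP livers close to them, and arrays tend to understate a change at low signals. The difference was -0.02 (95% interval -0.28 to 0.24), and its sign turned with a second quantile normalization or equal array medians. Jund, the Jun protein made at a steady level in most cells, ranged from 7.48 to 7.56 in GFP livers and from 7.18 to 7.82 in SHH livers, both extremes lying in the SHH group. Its difference was -0.01 (95% interval -0.39 to 0.37), with a sign that turned under the same 2 scalings. The dimmer Jund probe set gave 4.61 to 4.96 in GFP and 4.70 to 5.02 in SHH livers, which also overlapped.

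Jun, the founding AP-1 subunit, varied more between mice of 1 group than between groups. Its log2 signals were 8.27, 6.37 and 7.87 in the GFP group against 6.50, 7.89 and 7.36 in the SHH group. GFP 21 and SHH 26 were low and the other 4 livers were high, so the low livers came from both groups. The difference of -0.25 had a 95% interval of -1.36 to 0.85 and became 0.13 without GFP 13, 0.12 without SHH 26 and -0.82 without GFP 21.

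Atf3, a stress-induced relative that often represses its targets, had log2 signals of 5.81, 4.96 and 5.16 in the GFP group against 4.40, 5.18 and 5.76 in the SHH group. The range of the SHH livers reached below that of the GFP livers and almost to its top. The difference was -0.19 (95% interval -0.95 to 0.56), and it was 0.06 without GFP 13, 0.16 without SHH 26 and -0.52 without SHH 31. Jun and Atf3 were the only 2 of the 10 genes whose highest liver was a GFP liver, GFP 13 for both.

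Zfp36, the AU-rich element binding protein, had log2 signals of 9.24, 8.60 and 9.51 in the GFP group against 8.90, 9.58 and 9.34 in the SHH group. GFP 21 was the lowest liver and SHH 26 the next. The difference of 0.16 (95% interval -0.41 to 0.72) became -0.10 without GFP 21 and 0.35 without GFP 6. Ier3, the survival regulator, ranged from 4.64 to 4.85 in GFP livers and from 4.63 to 5.19 in SHH livers. Only SHH 31 exceeded the GFP range, and the difference of 0.09 (95% interval -0.28 to 0.47) was -0.08 without that mouse.

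**Figure D2:**
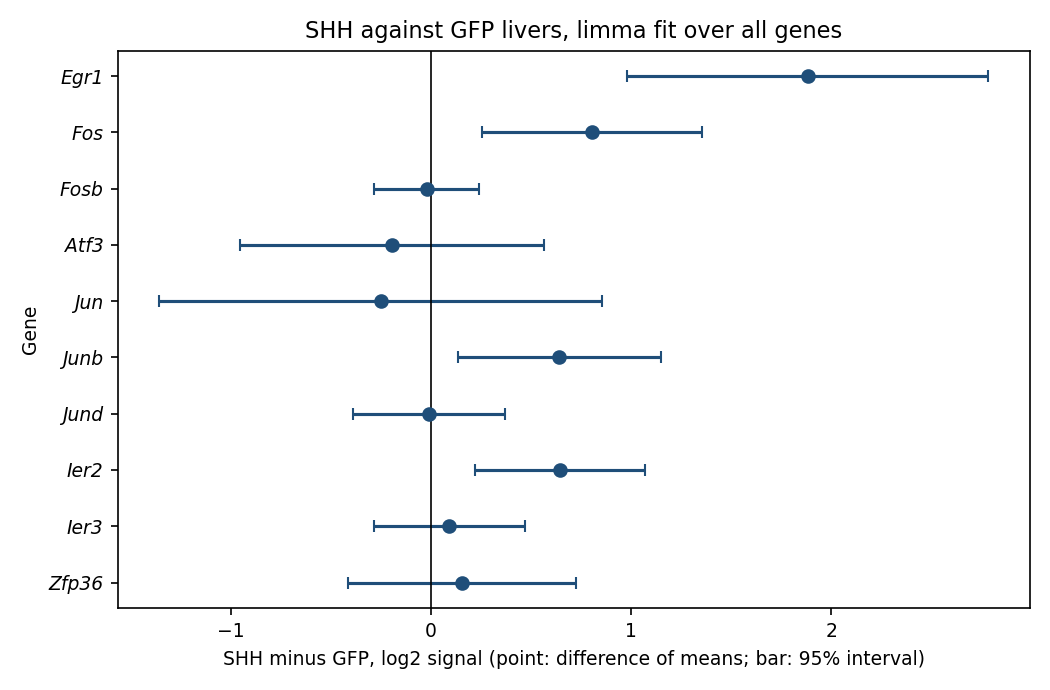
Difference of mean log2 signal, SHH minus GFP, for each of the 10 genes, with 95% intervals from the limma fit over all genes. The unadjusted intervals of Egr1, Fos, Junb and Ier2 lie above 0, those of the other 6 genes span 0, and the widest is that of Jun.

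GFP 21 and SHH 26 were the 2 lowest livers for 5 of the 10 genes, Atf3, Fosb, Jun, Jund and Zfp36, beside 7.38% of all genes. For Fosb and Jund the steps between livers were small, and for Jund the order of GFP 21 and GFP 6 rested on 7.480 against 7.481. This order was noticed in the values and was not tested.

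Whether close relatives responded unequally was asked by subtracting their signals within each liver, for 4 pairs chosen after the values were seen. The contrast of Fos exceeded that of Fosb by 0.83 on the log2 scale, with per-liver gaps of 0.24 to 0.46 in GFP and 0.62 to 1.54 in SHH livers. The contrast of Junb exceeded that of Jund by 0.65 and that of Egr1 exceeded that of its relative Egr2 by 1.98, again without overlap of the per-liver gaps. For these 3 pairs the exact permutation test, two-sided, gave p = 0.1 (adjusted over 4 pairs, 0.133), and 0.1 is the smallest value this test can give with 3 mice against 3. Fos, Junb and Egr1 were already known to separate the groups when these pairs were chosen. The test therefore cannot decide whether the relatives responded unequally. Junb and Jun differed by 0.89, with exact permutation p = 0.4 (adjusted 0.4). Egr2 was 4.39 to 4.68 in GFP and 4.26 to 4.80 in SHH livers, near the array medians of 4.32 to 4.40. Its low signal, like that of Fosb, limits what its pair can show about an unequal response.

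The spread between mice of 1 group was large for most of the 10 genes. Within groups, 6 of them had an SD above the 90th percentile of all genes: Jun (0.87, percentile 99.8), Egr1 (0.70, 99.4), Atf3 (0.58, 98.8), Zfp36 (0.41, 94.8), Fos (0.39, 94.0) and Junb (0.35, 91.1). By construction 10% of all genes lie there. Fosb was at the other end, with an SD of 0.06 at percentile 2.49. In 8 of the 10 genes the SD was larger among SHH than among GFP livers, as it was for 55.8% of all genes. As a ratio of SDs the contrast was widest for Ier2, with an SD of 0.03 in GFP and 0.39 in SHH livers, while Jun and Zfp36 varied more among GFP livers.

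**Figure D3:**
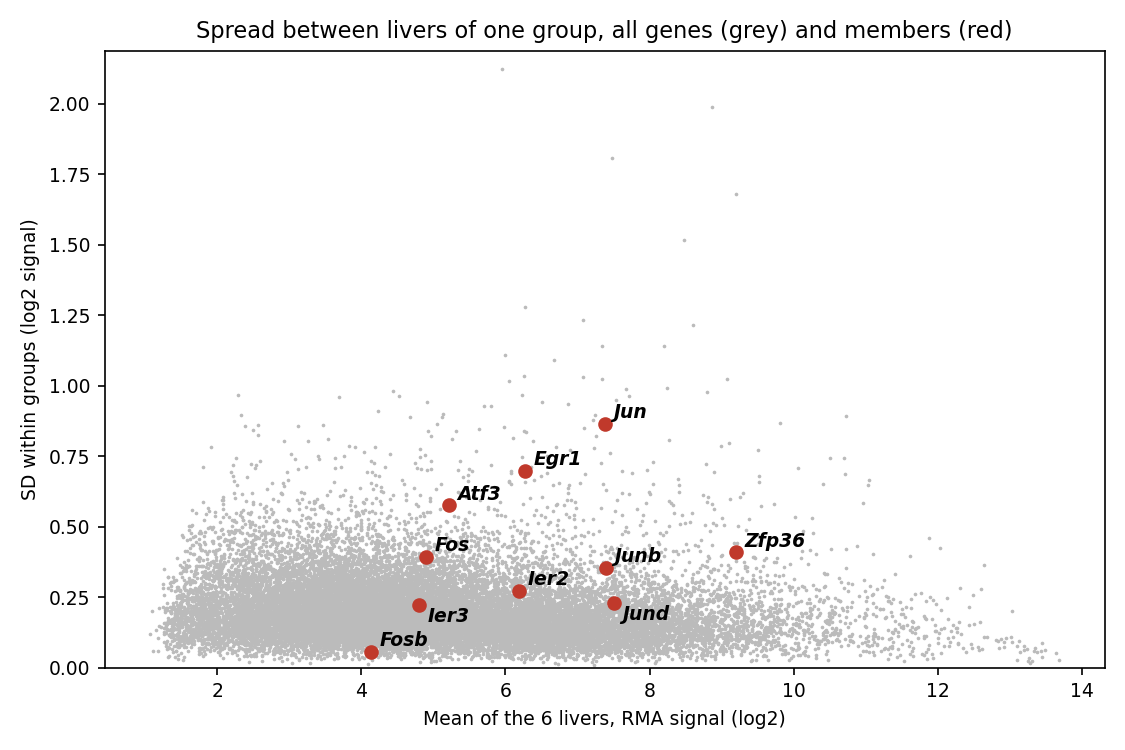
SD of log2 signal within groups (vertical, pooled over both groups) against the mean of the 6 livers (horizontal, log2) for all 22180 genes in grey and the 10 immediate early genes in red. Jun, Egr1 and Atf3 lie near the upper edge of the cloud, and Fosb lies at the bottom.

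Promoter sequence was available for 8 of the 10 genes in a RefSeq table (GRCm38.p6); Egr1 and Ier2 had no entry there. The 250 bases before the start of Fos (chr12:85473640-85473889, plus strand) and Junb (chr8:84978749-84978998, minus strand) are shown because both genes were higher in every SHH liver. Those of Fosb (chr7:19310046-19310295, minus strand) are shown for contrast, since its signal was flat. All are written 5′ to 3′ in the direction of the gene, and capitals mark TGACG, the core of the CREB and ATF element.
Fos: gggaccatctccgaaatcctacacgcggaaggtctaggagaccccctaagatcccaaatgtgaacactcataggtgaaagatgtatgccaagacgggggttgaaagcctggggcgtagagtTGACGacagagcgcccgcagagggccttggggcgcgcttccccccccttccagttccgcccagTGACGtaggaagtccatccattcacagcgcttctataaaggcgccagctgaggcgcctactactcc
Junb: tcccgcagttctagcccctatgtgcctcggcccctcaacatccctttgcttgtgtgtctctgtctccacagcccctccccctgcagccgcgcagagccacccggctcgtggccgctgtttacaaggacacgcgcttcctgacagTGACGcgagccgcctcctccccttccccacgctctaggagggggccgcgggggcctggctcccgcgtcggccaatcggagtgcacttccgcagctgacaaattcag
Fosb: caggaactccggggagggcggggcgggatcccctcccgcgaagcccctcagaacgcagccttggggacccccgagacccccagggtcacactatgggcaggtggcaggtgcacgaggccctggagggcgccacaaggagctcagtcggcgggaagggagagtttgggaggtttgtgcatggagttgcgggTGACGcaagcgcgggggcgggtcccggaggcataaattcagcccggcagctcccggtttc
Fos held TGACG at 129 to 125 and again at 66 to 62 bases before the start, Junb at 106 to 102 and Fosb at 60 to 56. Of the other available promoters, that of Atf3 also held the core and those of Jun, Jund, Ier3 and Zfp36 did not. Whether the core bears on the signals was not tested.

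Motifs were searched on both strands of these windows. TGACG was found in 4 of the 8, Atf3 being the fourth, and in 17.8% of the same window of 32851 promoters in the table. The whole element TGACGTCA, which contains that core, was found in 0 of the 8 and in 1.55% of all. The consensus AP-1 site, TGACTCA or TGAGTCA, was found in 0 of the 8 and in 4.46% of all. Variants of this site were not searched. The CArG box was found in 1, Zfp36, at 58 to 49 bases before the start, and in 1.47% of all. These are matches of letters in a short window, and elements farther from the start were not examined.

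Other genes of the response were taken from lists, of which 124 further genes were measured. In none of them did a gene pass over all genes in limma. Of 18 other Egr, Fos, Jun and Atf family genes and their partners, 7 had higher and 11 lower means, with a median difference of -0.04. Mafk, a small Maf protein, had the smallest p, with 5.08 to 5.37 in GFP and 5.42 to 5.64 in SHH livers, a difference of 0.38 (95% interval 0.07 to 0.68). Nab2, a corepressor that Egr1 induces and that binds it in turn, had 7.02, 7.53 and 7.09 in the GFP group against 7.55, 7.61 and 7.51 in the SHH group. The groups overlapped only through GFP 21, and the difference was 0.34 (95% interval -0.01 to 0.70). Atf2 and Atf6 differed by -0.20 and 0.19.

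Of 24 other early transcription factors, 20 had higher and 4 lower means, and the median difference was 0.12. Irf1, which interferon induces, was 6.46 to 6.78 in GFP and 6.85 to 7.42 in SHH livers, a difference of 0.51 (95% interval 0.12 to 0.91). Nfkbiz, a nuclear NF-kappaB cofactor, was 5.39 to 5.59 and 5.70 to 6.07, a difference of 0.38 (95% interval 0.07 to 0.69). Both separated the groups without passing over all genes (limma, adjusted p = 0.586 and 0.613). Id3 and Myc differed by 0.34 and 0.50, with overlap.

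Among 32 early effector genes, which encode phosphatases, growth arrest proteins, feedback inhibitors and secreted factors, 19 had higher and 13 lower means, with a median of 0.05. Socs3, the feedback inhibitor of cytokine receptors, had log2 signals of 5.74, 5.29 and 5.43 in the GFP group against 6.04, 7.16 and 6.64 in the SHH group. It shared with Egr1 the complete separation and the highest value in SHH 28, at a difference of 1.13 (95% interval 0.54 to 1.72). Btg2, an antiproliferative early gene, was 6.59, 5.56 and 5.51 in GFP and 6.28, 7.74 and 7.30 in SHH livers, where GFP 13 exceeded SHH 26. Dusp2, a nuclear MAP kinase phosphatase, differed by 0.39. The matricellular gene Ccn1 ran the other way, from 7.67 to 8.29 in GFP and 6.57 to 6.95 in SHH livers, a difference of -1.11 (95% interval -1.54 to -0.69), although it too is an immediate early gene.

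Genes upstream of the early response had differences of -0.44 to 0.38. Of 11 genes for serum response factor and its partners, 2 had higher and 9 lower means, with a median of -0.07. Mrtfa, an actin-regulated coactivator of serum response factor, differed by 0.38 (95% interval 0.03 to 0.73), the ternary complex factor Elk3 by -0.26, and Crem and Creb1 by -0.25 and -0.17. Of 16 measured receptors, Ras proteins and kinases upstream of early genes, 4 had higher and 12 lower means, with a median of -0.06. The smallest p values were those of Map2k3 (-0.26), Mapkapk2 (0.22), Map2k2 (-0.27) and Rps6ka5 (-0.20). Kinase messenger levels do not report kinase activity, which was not measured.

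**Figure D4:**
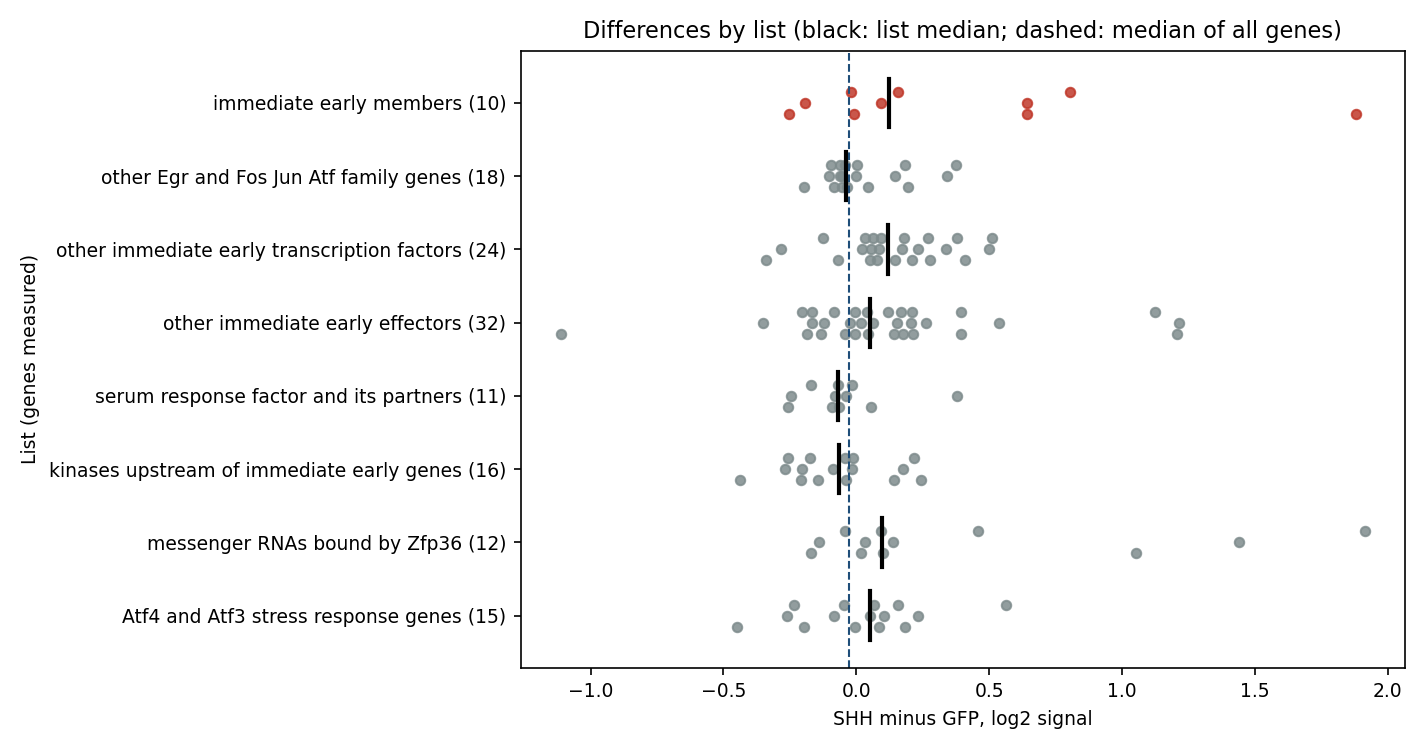
Difference of mean log2 signal, SHH minus GFP, for every measured gene of the 10 immediate early genes (red) and of the other lists (grey), with the number of genes in brackets. Black bars are list medians, from -0.07 to 0.12, and the dashed line is the median of all genes, -0.03; the rightmost red point is Egr1 and the leftmost grey point among the effectors is Ccn1.

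Downstream of Zfp36, 12 messenger RNAs that the protein is known to bind were measured, Ier3 among them, and 9 had higher and 3 lower means (median 0.10). The counts include genes near the bottom of the arrays, whose direction says little. Il6 at 1.89 to 2.47 and Il10 at 2.55 to 3.03 lay under the lower quartile of every array (3.13 to 3.22). Il1b, the inflammatory cytokine, was 4.55 to 5.13 in GFP and 5.68 to 6.92 in SHH livers, a difference of 1.44. The chemokine Ccl2 was 4.87 to 5.11 and 5.27 to 5.53, a difference of 0.46. The neutrophil chemokine Cxcl1 was 6.02, 6.88 and 6.25 in the GFP group against 6.70, 9.80 and 8.37 in the SHH group, with SHH 26 inside the GFP range. Ccl3 was high only in SHH 31, at 6.51 against 3.44 to 4.42 elsewhere.

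Of 15 measured genes of the Atf4 and Atf3 stress response, 8 had higher and 7 lower means (median 0.05). Phgdh, an enzyme of serine synthesis, differed by -0.45 (95% interval -0.83 to -0.07) and Chac1, a glutathione-degrading enzyme, by 0.56 (95% interval 0.02 to 1.10), so the genes with the smallest p pointed both ways. Sesn2 and Fgf21 differed by -0.26 and 0.23.

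The tissue matched its label in that the hepatocyte marker Alb had the highest signal on each of the 6 arrays, 13.66 to 13.72. The summed linear signal of the 8 hepatocyte markers was 50482 to 50823 in GFP and 49988 to 52660 in SHH livers. Array medians lay between 4.32 and 4.40 and no 2 arrays were identical. Shh itself was 3.43 to 3.86 in GFP and 4.28 to 4.63 in SHH livers (limma, adjusted p = 0.356).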

How the data were processed

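Gene expression was measured on Affymetrix arrays in 6 livers, 3 GFP and 3 SHH, from separate mice. The deposited values are log2 signals made by the authors with RMA (background correction, quantile normalization and probe set summary), per the submitters' processing notes; the sources used here give no version, annotation or build. RMA equalises the arrays, so a shift shared by all genes cannot be seen. Of 41345 probe sets, 23521 named 1 gene, 1814 several and 16010 none. The single-gene probe set with the highest mean stood for each of 22180 genes, and 0 symbols needed updating (193 probe sets had no entry in the gene table).

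The comparison used limma 3.58.1 under R 4.3.3 (lmFit, eBayes, two-sided, Benjamini-Hochberg over all genes, threshold 0.05, no covariate, no filter). Folds are 2 to the power of the log2 difference, and intervals are unadjusted 95% intervals. The script was tested on simulated data. Mouse numbers are not shared between groups, so nothing was paired. Lists were described by counts and medians, without a set test. Genes of low signal were counted like the others. Named genes were the 10 immediate early genes, up to 4 per other list by smallest p, and Shh. Alb, Il6, Il10 and S100a8 were named for their signal level and Egr2 for its pair. The immediate early genes and the lists were chosen with earlier results of these data known. The 4 pairs of relatives and the order of livers were examined after the values were seen. The alternatives were other choices of probe set, normalization, prior, weights and level filter, each probe set tested alone, and each mouse left out. The number of arrays limits the precision.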

Additional observations from a re-analysis of the deposited data

How the results depend on the processing

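Egr1, Fos, Junb and Ier2 kept a higher mean in SHH livers under all 15 alternatives, and Egr1, Fos and Ier2 an unadjusted p under 0.05. Without SHH 26, limma called 30 genes higher and 16 lower in place of 0 and 0, and 1 immediate early gene, Fos, in place of 0; with each of the other mice left out these counts were 0. The median difference of the 10 genes stayed above 0 under all 15 alternatives, from 0.04 to 0.27. The count of 6 higher means was 8 under a second quantile normalization or equal array medians, 9 without GFP 13, 10 without SHH 26 and 5 without GFP 21 or SHH 31.

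Differences near 0 changed sign. Fosb was 0.0069 with a second quantile normalization and 0.0011 with equal array medians, and Jund 0.0033 and 0.015, and 0.00054 with the probe set of largest interquartile range. With each mouse left out, the ranges were -0.056 to 0.015 for Fosb, -0.17 to 0.15 for Jund, -0.82 to 0.13 for Jun, -0.52 to 0.16 for Atf3, -0.078 to 0.20 for Ier3 and -0.10 to 0.35 for Zfp36. The cause of these changes was not tested. Fosb was left out by the filter on level. No paired analysis was possible because the groups share no mouse number. No background level was measured, so how far low signals such as those of Fosb and of Fos in GFP livers understate a change is not known.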
